A study of Mus musculus with 40 samples.

Results

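Scar tissue was set against remote muscle of the same heart 21 days after permanent ligation of the left anterior descending artery, the coronary vessel on the front of the left ventricle. The injured libraries came from the fibrotic scar of the ligated heart at day 21, and the uninjured libraries from a region remote to the injury in the same hearts. The mice were adult C57BL/6, an inbred laboratory strain, and carried no transgene per the labels. Every heart of the series was ligated, so the uninjured region is remote tissue of an infarcted heart and not tissue of an unoperated one. The comparison holds 8 of the 40 RNA-seq libraries, chosen by their day and region labels: 1 injured and 1 uninjured library from each of the 4 mice labelled A3, A4, A10 and A11. Libraries of day 14, from other A-labelled mice, and of day 42, from B-labelled mice, are described below only where the day 21 difference is set against theirs. The filter and the model held all 40 libraries, so standard errors and p-values also rest on the mice of the other days. The animal labels recur between days but stand for different animals.

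The values are the authors' RPKM, which divide the reads of a gene by its length and by the depth of the library. Of 11450 genes in the table, 11390 reached 1 RPKM in at least 4 of the 40 libraries and were tested. A difference is the mean of log2(RPKM + 1) in injured minus uninjured libraries over the 4 mice, given with its standard error, a scale that understates the change of genes with low RPKM. A gene was called, and is said to have risen or fallen, where limma's test with the mouse as a block gave a Benjamini-Hochberg adjusted p under 0.05 over all genes tested. Values per library are in the order of mice A3, A4, A10 and A11 throughout.

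A ligated heart replaces the muscle that dies with a scar. In that scar, fibroblasts lay down collagen fibrils that are cross-linked by lysyl oxidases and dressed with small proteoglycans, while macrophages clear debris and small vessels regrow. By the third week the inflammatory phase in mice has largely passed and the scar is maturing. The muscle that remains elsewhere goes on contracting and draws most of its energy from fatty acids oxidised in its mitochondria.

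Between 16388914 and 22242640 whole reads per library could be worked back from the RPKM of the 8 libraries. The region accounted for most of what varied. On the first principal component, with 93.1% of the variance of the 8 libraries, injured libraries lay between -66 and -47 and uninjured libraries between 48.1 and 66.1. Most genes tested differed. At day 21, 4906 genes rose in the injured region (43.1%) and 4665 fell (41%), 84% in all. Genes that rose at least 2-fold numbered 1530 (13.4%), and 1792 fell at least 2-fold (15.7%). In 8903 genes (78.2%) the 4 injured and 4 uninjured libraries did not overlap. With such a background a single call says little about a group of genes, so the groups below are to be read beside 43.1% higher, 41% lower and a median of 0.03 over all genes. The authors' library sizes are not proportional to the reads that could be worked back. Rescaled to those reads, the median difference of all genes was 0.381 in place of 0.03, and 6788 genes rose and 3008 fell (69.3% of calls higher, against 51.3% as deposited), so small differences below are relative to the authors' scaling. Of the 3322 genes called with at least a 2-fold difference, 0 turned round after that rescaling and 2 after quantile normalization, which forces all libraries to the same distribution. The mouse-by-mouse differences of all genes correlated between mice at 0.963 to 0.984, across genes, which are not independent replicates. The second component, with 3.3% of the variance, was negative in both libraries of mice A3 and A4 and positive in both of A10 and A11. Xist, the RNA of the inactive X chromosome, was at 77.6 and 70.4 RPKM in the injured and 16.8 and 17.4 RPKM in the uninjured libraries of A10 and A11, and below 0.1 RPKM in all 4 libraries of A3 and A4. The Y-linked Ddx3y was at 20.8 to 43.1 RPKM in the libraries of A3 and A4 and at most 0.0562 RPKM in those of A10 and A11. The labels do not give the sex of the mice. By Xist and Ddx3y, A3 and A4 read as male and A10 and A11 as female. Differences between these pairs of mice, here and below, therefore cannot be told apart from differences between the sexes. The sex of the mice of other days is not reported here. With A3 and A4 as the only day 21 mice 4623 genes rose and 4445 fell, and with A10 and A11 as the only ones 4270 rose and 4087 fell.

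**Figure D1:**
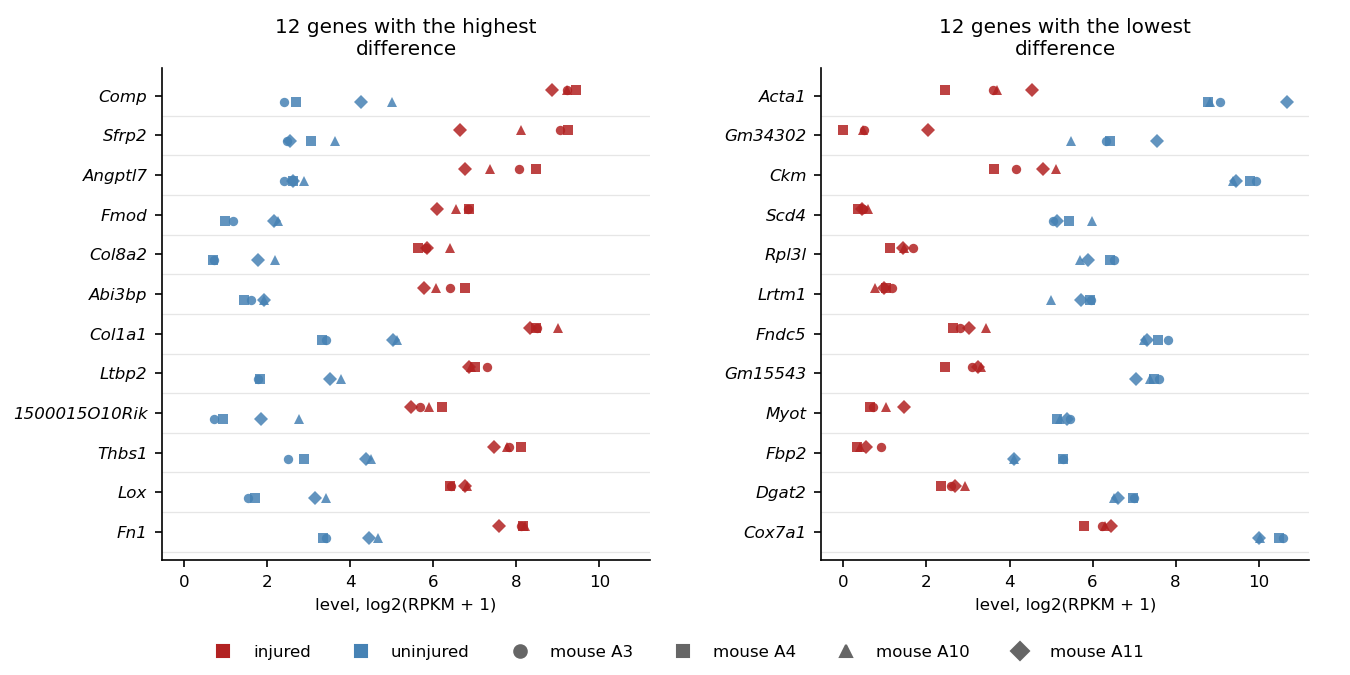
Level of the 12 genes with the largest and the 12 with the smallest difference at day 21, as log2(RPKM + 1), in every library (red, injured; blue, uninjured; marker shape, mouse). The regions do not overlap for any of the 24 genes, and for Comp, Col1a1, Ltbp2, Thbs1, Lox and Fn1 the uninjured libraries of mice A10 and A11 lie above those of A3 and A4.

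The gene with the largest difference was Comp (chr8:70373558-70382066, plus strand; GENCODE M21 annotation of mm10), which encodes a pentameric glycoprotein of cartilage and tendon that binds collagen fibrils. Its level was 592, 689, 595 and 462 RPKM in injured libraries, against 4.29, 5.48, 31.0 and 18.0 RPKM in uninjured libraries. All 4 injured libraries lay above all 4 uninjured ones, and among the uninjured libraries those of A10 and A11 were the highest. The log2 difference was 5.59 ± 0.37 (n = 4 mice, limma adjusted p = 1.27e-10). Second was Sfrp2 (chr3:83766321-83774316, plus strand), a secreted protein that binds Wnt ligands and is made by fibroblasts. It stood at 532, 603, 276 and 98.0 RPKM in injured libraries, against 4.60, 7.34, 11.4 and 4.84 RPKM in uninjured libraries. The injured libraries spread widely, with A11 far below A3 and A4, yet the lowest of them was still above every uninjured library. Its difference was 5.33 ± 0.31 (limma adjusted p = 1.39e-11).

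The list of genes of tendon, cartilage and bone was mostly higher, as were other matrix lists below. Several of its members, such as Comp, Fmod and Col2a1, are also counted in the glycoprotein, proteoglycan or collagen lists. Of 30 tested members of the list, 27 rose and 2 fell, with a median difference of 2.24, and 26 rose at least 2-fold. Angptl7, a secreted protein of the angiopoietin-like family, rose by 5.04 on the log2 scale. Fmod, fibromodulin, a small leucine-rich proteoglycan of tendon that attaches to collagen fibrils, was at 113, 115, 92.6 and 67.2 RPKM in injured libraries, against 1.25, 0.978, 3.76 and 3.45 RPKM in uninjured libraries. No uninjured library came near the lowest injured one, and the difference was 4.94 ± 0.22 (limma adjusted p = 9.89e-14). Chondroadherin (Chad), a leucine-rich protein of cartilage, was at 2.73, 5.76, 7.77 and 6.10 RPKM in injured libraries and at 0.0702, 0.0301, 0.116 and 0.151 RPKM in uninjured ones. Aggrecan (Acan), the large cartilage proteoglycan, was at 4.68, 6.29, 3.90 and 2.27 RPKM in injured libraries and at 0.0553, 0.0473, 0.196 and 0.113 RPKM in uninjured ones. Both genes were close to nothing in the remote muscle and low but present in every scar, with differences of 2.53 ± 0.19 and 2.20 ± 0.22.

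The transcription factors of these tissues were also measured. Sox9, which drives cartilage formation, was at 17.6, 19.1, 10.2 and 6.99 RPKM in injured libraries, against 0.399, 0.269, 0.895 and 0.551 RPKM in uninjured libraries. Its scar levels were higher in A3 and A4 than in A10 and A11, without overlap with the remote region (difference 3.16 ± 0.19, limma adjusted p = 4.05e-12). Runx1 rose by 2.71, Runx2, the master factor of bone, by 1.45, and Egr1, a mechanically induced factor of tendon, by 2.05 on the log2 scale. Scleraxis (Scx), the factor that marks tendon, rose less, by 0.83, and its groups overlapped. The 1 list member that was not called, a relative of Sox9, is also a transcription factor of cartilage (-0.06). The fibril-forming cartilage collagen Col2a1 stood at 1.41, 3.69, 4.52 and 2.05 RPKM in injured libraries and 0, 0, 0.0893 and 0.0352 RPKM in uninjured ones. It was listed at 0 in the remote muscle of A3 and A4 and was above 1 RPKM in every scar. The members that fell were Alpl, the alkaline phosphatase of bone and other tissues (-0.96), and Meox2, a homeobox factor also made by endothelium (-0.52, but -0.13 and not called after rescaling to recovered reads, limma adjusted p = 0.264).

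**Figure D2:**
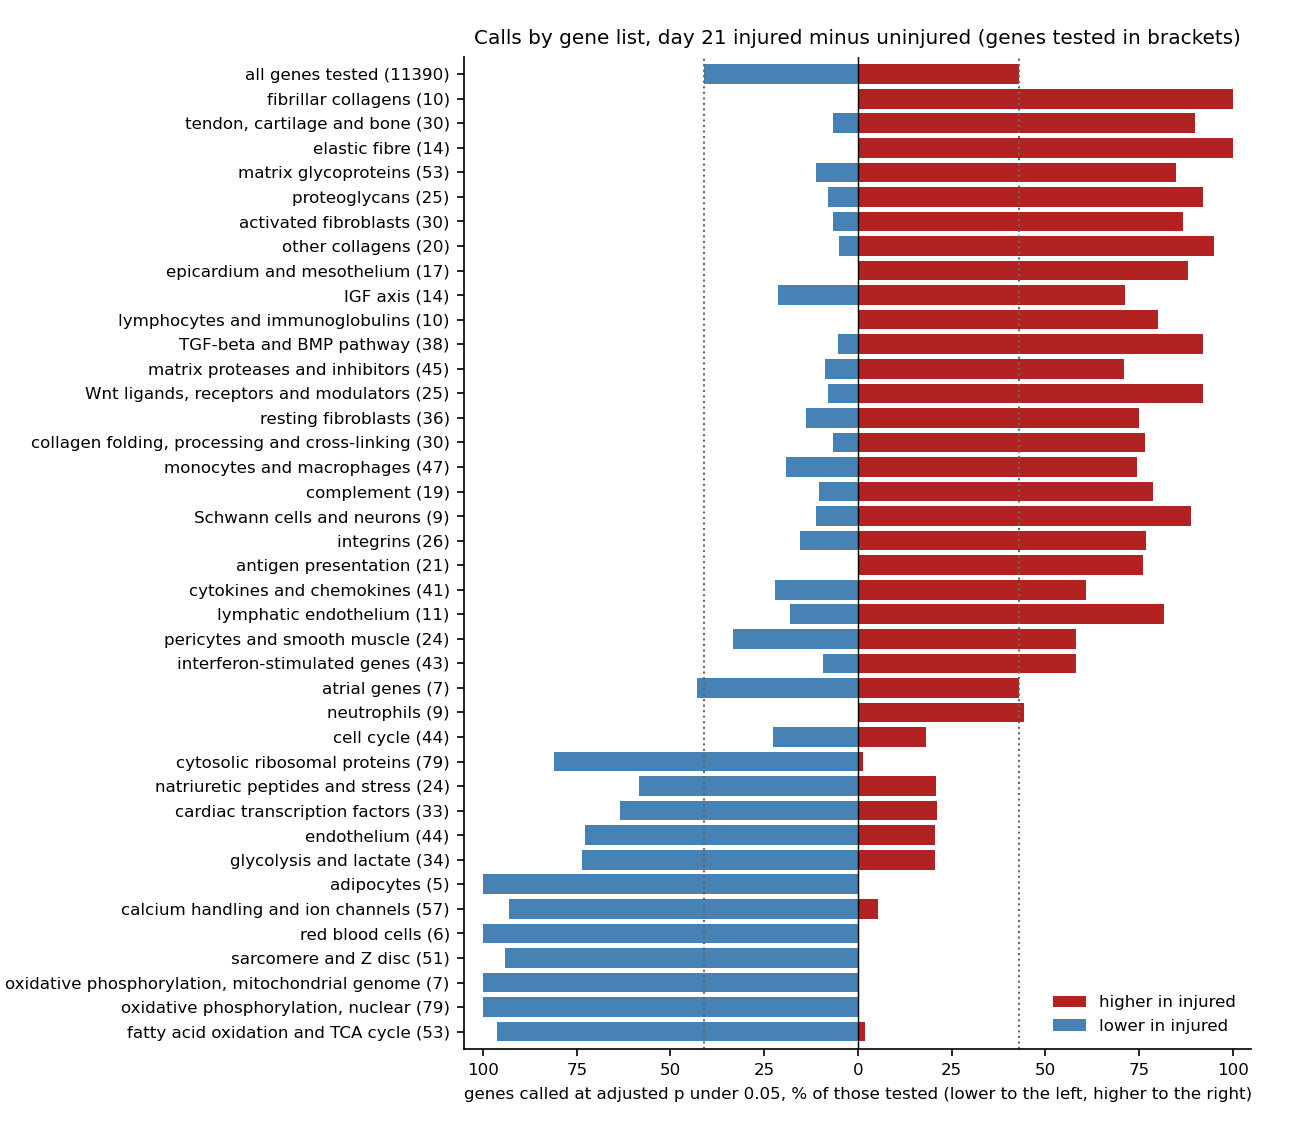
Share of tested genes called higher (right, red) and lower (left, blue) in the injured region for each gene list with at least 5 tested members, in order of the list's median, with the number tested in brackets. Dotted lines mark the shares over all genes, 43.1% higher and 41% lower. Collagens and the elastic fibre lie wholly or almost wholly to the right and energy metabolism to the left.

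The fibrillar collagens form the banded fibrils that give a scar its strength. All 10 tested members rose, with a median of 2.66. Col1a1, the main chain of type I collagen, was at 360.4, 352, 509 and 318 RPKM in injured libraries, against 9.64, 8.98, 33.8 and 31.7 RPKM in uninjured libraries. The groups stood far apart, while uninjured A10 and A11 had about the same level and both lay above A3 and A4. The difference was 4.35 ± 0.31 (limma adjusted p = 1.17e-10). Col3a1, the chain of the pliable type III fibrils, had a lower difference of 3.13 ± 0.21. The ratio of Col3a1 to Col1a1 RPKM was 2.16, 2.53, 2.02 and 2.46 in injured libraries, against 6.13, 7.13, 4.70 and 4.83 in uninjured libraries, and was lower in the scar in all 4 mice. The minor type V chains, which sit inside type I fibrils and set their width, are the subject of the study's title. Col5a1 rose by 2.73 and Col5a2 by 2.91 on the log2 scale. Col5a3 was at 5.48, 5.99, 15.0 and 12.6 RPKM in injured libraries and 2.16, 2.34, 6.16 and 6.68 RPKM in uninjured ones. It rose by 1.02, but the groups overlapped, because both regions of A10 and A11 were above both regions of A3 and A4. Within a mouse the injured library was the higher one in 4 of 4 mice. Of the 20 other collagens tested, 19 rose, at a median of 1.47. The largest was Col8a2, a network-forming chain best known from the cornea, at 55.6, 48.8, 82.8 and 56.7 RPKM in injured libraries and 0.657, 0.630, 3.54 and 2.42 RPKM in uninjured ones (difference 4.58 ± 0.15). Col12a1 and Col14a1, which decorate fibrils, rose by 3.08 and 2.95. The chains of basement membrane differed less: Col4a1, present around every muscle fibre and vessel, rose by 0.39 and Col4a2 by 0.91. Col6a6 fell (-0.28). Both small calls were fragile. That of Col4a1 was lost without A3, without A4 and without the mouse block (limma adjusted p = 0.0505 to 0.0956), and that of Col6a6 without A3, without A11, without the block, in the 8 libraries alone and after rescaling (limma adjusted p = 0.0536 to 0.419).

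Of 30 tested genes that fold, trim and cross-link collagen, 23 rose and 2 fell (median 1.10). The enzymes acting outside the cell led. Lox, lysyl oxidase, which starts the cross-links, was at 84.6, 83.4, 112 and 108 RPKM in injured libraries, against 1.90, 2.28, 9.64 and 7.94 RPKM in uninjured libraries. Scar levels were alike in the 4 mice, and the remote level differed more between mice (difference 4.15 ± 0.20). Its relatives Loxl3 and Loxl1 rose by 3.17 and 2.60, and Adamts2, which removes the amino-terminal propeptide of procollagen, by 2.66. Enzymes of the endoplasmic reticulum that modify new collagen chains were divided. The hydroxylases P4ha3 (2.37), P3h3 (2.26), P3h2 (1.66), Plod2 (1.29), P3h1 (0.93) and Plod3 (0.77) rose, as did Crtap (1.36), Fkbp10 (1.21) and the collagen chaperone Serpinh1 (0.79). Plod1 fell (-0.34), P4hb (0.09) and P4ha1 (0.05), which form prolyl 4-hydroxylase, were not called and P4ha2 fell (-0.40). P4hb, P4ha1, P4ha2 and Plod1 depended on scaling: after rescaling to recovered reads P4hb and P4ha1 rose (0.54 and 0.49) and P4ha2 and Plod1 stood at 0.0013 and 0.084, neither called.

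Proteoglycans, elastic fibres and adhesive glycoproteins moved in the same direction as the collagens. Of 25 proteoglycan genes 23 rose (median 1.66). Prelp (3.90) and Bgn, biglycan (3.76), led with Fmod, whereas Dcn, decorin, already abundant in resting fibroblasts, rose by only 0.97. The heparan sulfate proteoglycan Gpc1 fell (-1.92), as did Srgn, made by blood and endothelial cells (-0.88). All 14 tested genes of the elastic fibre rose (median 1.87). Eln, the elastic protein itself, was at 40.6, 67.2, 164 and 113 RPKM in injured libraries, against 2.61, 2.78, 15.1 and 12.5 RPKM in uninjured libraries. A10 and A11 had the highest level in both regions, and the difference was 3.53 ± 0.24. Of 53 matrix glycoproteins 45 rose and 6 fell (median 1.75). Fn1, fibronectin, rose by 4.06, Thbs1, thrombospondin 1, by 4.23, Cthrc1, a marker of collagen-secreting fibroblasts, by 3.98 and Abi3bp by 4.52. Those that fell furthest were Vtn, vitronectin (-2.16), and Emilin2 (-1.61).

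Periostin (Postn), a matricellular protein of activated fibroblasts, showed how far the remote region differed between mice. It was at 285, 256, 158 and 179 RPKM in injured libraries and at 32.1, 41.2, 139 and 93.0 RPKM in uninjured libraries. The lowest injured library (A10) lay just above the highest uninjured one, which came from the same mouse. The difference of 1.71 ± 0.43 was called (limma adjusted p = 0.00133), and it was 0.56 (limma adjusted p = 0.32) with mice A10 and A11 as the only day 21 mice. Thbs4, a thrombospondin of tendon and strained muscle, overlapped between the groups, with 71.8, 36.9, 23.7 and 43.0 RPKM in injured and 5.72, 5.50, 14.5 and 29.1 RPKM in uninjured libraries (difference 1.80 ± 0.56). Its call was lost without mouse A3, at a difference of 1.25 (limma adjusted p = 0.0688). Tnc, tenascin-C, was at 12.2, 14.1, 11.7 and 9.54 RPKM in injured and 1.13, 1.01, 4.03 and 3.84 RPKM in uninjured libraries. In all 3 genes the uninjured libraries of A10 and A11 were the highest of their region. The summed RPKM of the 10 fibrillar collagens followed the same order, at 1732, 1831, 2220.0 and 1647 in injured libraries, against 110.1, 115, 292 and 284 in uninjured ones.

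Of 45 matrix proteases and inhibitors 32 rose and 4 fell (median 1.13). The collagen- and gelatin-cleaving Mmp2 was at 250.1, 209, 149.9 and 192 RPKM in injured libraries and 29.6, 30.1, 37.6 and 44.6 RPKM in uninjured ones. All scars were above all remote samples, by 2.46 ± 0.14. Mmp3 rose by 2.64, and the membrane-bound Mmp14, which activates Mmp2, by 1.83. Neutrophil-associated Mmp8 (0.08) and Mmp9 (-0.07) were not called. The inhibitors split. Timp1 rose by 1.86, Timp2 by 2.27 and Timp3 by 1.53, but Timp4, the inhibitor most typical of the healthy heart, fell to 0.260, 0.261, 0.0759 and 0.316 RPKM in injured libraries, against 13.3, 12.4, 4.31 and 14.8 RPKM in uninjured libraries. Scar levels were all under 1 RPKM, and uninjured A10 was the lowest of its group (difference -3.20 ± 0.24).

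Genes of signals known to act on fibroblasts were mostly higher in the scar. In the TGF-beta and BMP pathway 35 of 38 genes rose and 2 fell (median 1.21). Among ligands, Tgfb3 was at 87.4, 98.1, 97.6 and 75.4 RPKM in injured libraries, against 10.001, 11.3, 15.6 and 14.8 RPKM in uninjured libraries, with no overlap and a difference of 2.71 ± 0.14. Tgfb2 rose by 1.64 and Tgfb1 by 1.21. The receptors Tgfbr1 and Tgfbr2 rose by 1.66 and 1.23. The targets and brakes Pmepa1 (2.50), Skil (1.39) and Smad7 (1.29) rose too, and so did Fst, follistatin, which binds activins (3.16). Id2 (2.01) and Id3 (1.29) rose while Id1, a related BMP target, fell (-0.85). Of 25 Wnt genes 23 rose and 2 fell (median 1.12). Those with the largest differences were secreted proteins that bind Wnt or are Wnt-induced: Sfrp2, Dkk3 (3.64), Wisp2 (3.58), Frzb (3.43) and Sfrp1 (3.08). Among ligands, Wnt11 rose by 0.68 and Wnt5a by 0.40, and after quantile normalization neither was called (0.24, limma adjusted p = 0.0695, and -0.063, limma adjusted p = 0.59). The receptor Fzd2 rose by 1.90. In the IGF axis 10 of 14 genes rose, with Igf1 at 1.38 and the binding protein Igfbp2 at 2.13, and 3 fell, Igf2 (-0.43), Igf2r (-0.64) and Stc1 (-0.33), at a median of 1.33. The calls of Igf2 and Stc1 were lost after rescaling to recovered reads (-0.21 and -0.075) and without A11 and A4 in turn (limma adjusted p = 0.0611 for Igf2 without A11 and 0.0704 for Stc1 without A4), and Igf2r stood at 0.067 after quantile normalization.

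Both fibroblast lists were mostly higher. Of 30 genes of activated fibroblasts 26 rose (median 1.64), and of 36 genes of resting fibroblasts 27 rose (median 1.11). The fibroblast markers Pdgfra, a growth factor receptor, and Tcf21, a factor of the epicardial lineage, rose by 1.39 and 2.30. Acta2, the smooth muscle actin of myofibroblasts, was at 194, 223, 181 and 155 RPKM in injured libraries, against 66.4, 48.2, 67.0 and 71.3 RPKM in uninjured libraries. The regions were separate, and the difference was 1.56 ± 0.21. The 2 activated-fibroblast members that fell, Fhl2 (-2.97) and Tpm1 (-2.20), are also strongly made by heart muscle. The resting-fibroblast members that fell were Ly6c1 (-2.18), Ly6a (-1.56), Scara5 (-1.40), the chemokine Cxcl12 (-1.22) and Hsd11b1 (-0.71). Ly6c1 and Ly6a are also made by endothelium. In the epicardium and mesothelium list 15 of 17 genes rose and 0 fell (median 1.39). The surface markers Msln (2.40) and Upk3b (1.85) were higher, as was Upk1b (1.78).

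**Figure D3:**
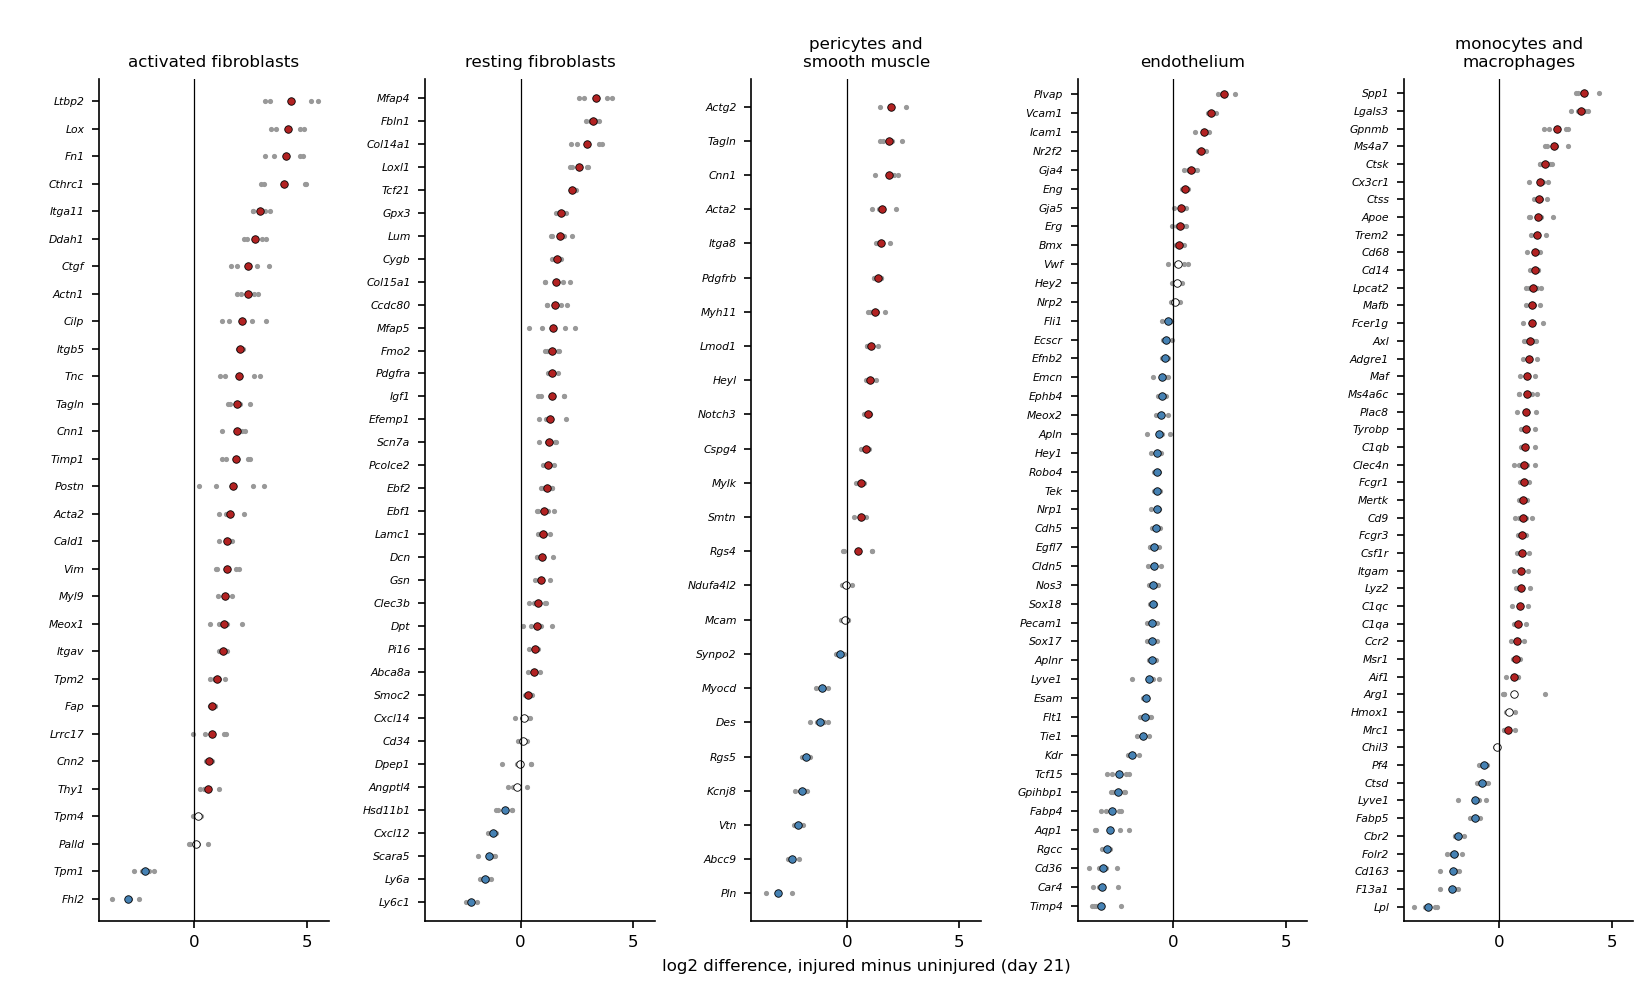
Log2 difference at day 21 of each tested member of 5 cell type lists (large points: fitted difference, red where called higher, blue where called lower, white where not called; small grey points: the 4 mice). Endothelial genes run from Timp4 at -3.20 to Plvap at 2.27, and the macrophage and mural lists hold called members in both directions.

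Vessel-wall genes moved in both directions. Of 24 pericyte and smooth muscle genes 14 rose and 8 fell (median 0.62). Among smooth muscle genes, Actg2 rose by 1.98, Tagln by 1.88, Cnn1 by 1.88 and Myh11, the smooth muscle myosin, by 1.25. Myocd, a cofactor of serum response factor that heart muscle also makes, fell (-1.10). Pericyte markers were divided too. Pdgfrb, a growth factor receptor (1.36), Cspg4 (0.86), Notch3 (0.93) and Heyl (1.05) rose, and Rgs5, Kcnj8 and Abcc9 fell. Rgs5, a regulator of G protein signalling, was at 78.1, 84.6, 75.0 and 84.2 RPKM in injured libraries, against 311, 317, 261 and 265 RPKM in uninjured libraries. Within each region the 4 mice were close together, and the difference was -1.83 ± 0.11. Kcnj8 and Abcc9, which form the potassium channel of pericytes, had differences of -1.99 ± 0.11 and -2.43 ± 0.11. Abcc9 is also made by heart muscle, as are Pln (-3.04) and Des (-1.21), which are counted among the 8 that fell. In these bulk samples, fewer cells of a type and less RNA per cell cannot be told apart, for these and all other cell type genes.

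Endothelial genes mostly fell, 32 of 44 with a median of -0.72 (-0.30 after rescaling to recovered reads), while 9 rose. Several capillary genes were among those that fell far. Car4, a carbonic anhydrase on the capillary surface, was at 0.0331, 0.0602, 0.130 and 0.109 RPKM in injured libraries, against 11.2, 9.22, 5.08 and 9.60 RPKM in uninjured libraries. It was near 0 in every scar and present in all remote samples, with a difference of -3.13 ± 0.18. Gpihbp1, which carries lipoprotein lipase across capillary endothelium, was at 5.34, 5.34, 7.29 and 8.17 RPKM in injured and 41.1, 39.1, 34.8 and 41.0 RPKM in uninjured libraries. The water channel Aqp1 (-2.79), the fatty acid carriers Cd36 (-3.12) and Fabp4 (-2.72) and Rgcc (-2.93) also fell. Cd36 is also made by heart muscle. The pan-endothelial adhesion genes Pecam1 and Cdh5 fell less, to differences of -0.92 ± 0.08 and -0.75 ± 0.09, and von Willebrand factor (Vwf) was not called (0.24). The call of Cdh5 was lost after quantile normalization (-0.17, limma adjusted p = 0.109), and Vwf was called higher after quantile normalization (0.31, limma adjusted p = 0.0403), after rescaling to recovered reads (0.63, limma adjusted p = 0.000158) and without mouse A11 (0.40, limma adjusted p = 0.012). On the other side stood Plvap, which builds the diaphragms of fenestrated and venous endothelium. It was at 12.2, 14.9, 21.9 and 19.6 RPKM in injured libraries, against 1.93, 1.37, 4.14 and 4.14 RPKM in uninjured libraries. A10 and A11 were highest in both regions, without overlap between regions (difference 2.27 ± 0.12). The adhesion molecules Vcam1 (1.68) and Icam1 (1.40), made by several cell types, and Nr2f2, a factor of vein identity (1.25), rose with it. Of the vessel growth factors, Vegfa (-1.71) and Vegfb (-1.88) fell, whereas Vegfd (2.57) and Angpt2 (1.78), which loosens vessels, rose and Angpt1, its counterpart, fell (-1.17).

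Macrophage genes moved in both directions. Of 47 tested, 35 rose and 9 fell (median 1.06). The defining markers rose: Cd68 by 1.61, Adgre1 by 1.34 and Csf1r, the receptor for the macrophage growth factor, by 1.01. The members with the highest differences were Spp1, osteopontin (3.76), and Lgals3. Lgals3, galectin 3, was at 59.8, 57.6, 49.8 and 57.9 RPKM in injured libraries, against 2.95, 3.15, 4.61 and 4.14 RPKM in uninjured libraries. The 4 scars were alike and the regions far apart (difference 3.62 ± 0.17). Gpnmb (2.55), Ms4a7 (2.42) and Trem2 (1.67) rose as well. Among the members that fell were genes of resident heart macrophages. Cd163, the haemoglobin scavenger receptor, was at 0.811, 0.8287, 1.64 and 0.578 RPKM in injured libraries, against 6.30, 5.69, 7.98 and 8.70 RPKM in uninjured libraries. F13a1, a coagulation factor subunit, was at 4.67, 6.47, 9.29 and 8.58 RPKM in injured and 33.9, 29.2, 35.7 and 35.9 RPKM in uninjured libraries. For both genes every scar lay well below every remote sample, by -2.07 ± 0.11 and -2.11 ± 0.13. Folr2 (-2.00) and Cbr2 (-1.82) also fell, as did Lyve1 (-1.06), whose groups overlapped. Lpl, the member with the lowest difference (-3.17), is strongly made by heart muscle, and Lyve1 is also a gene of lymphatic endothelium.

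Other immune lists were mostly higher, neutrophil genes apart. In antigen presentation 16 of 21 genes rose and 0 fell (median 0.70). The class II chaperone Cd74 rose by 1.29 and the class II chains H2-Ab1 and H2-Aa by 1.15 and 1.10, whereas the class I gene H2-K1 rose by 0.33. In the complement list 15 of 19 rose and 2 fell (median 0.99). C3, its central component, was at 319, 324, 365 and 198 RPKM in injured libraries, against 51.3, 33.7, 45.5 and 37.0 RPKM in uninjured libraries, by 2.80 ± 0.21. Of 10 lymphocyte and immunoglobulin genes 8 rose and 0 fell (median 1.27). The kappa light chain Igkc was at 5.75, 8.95, 39.7 and 19.4 RPKM in injured and 1.44, 1.80, 4.39 and 2.86 RPKM in uninjured libraries. The scars of A10 and A11 were the highest, and the difference of 2.15 ± 0.58 has a wide error (limma adjusted p = 0.00261). With A3 and A4 as the only day 21 mice the call of Igkc was lost (1.65, limma adjusted p = 0.0923). Many immunoglobulin genes are similar copies whose reads could be split between them, though Igkc is a single gene. Of 9 neutrophil genes 4 rose and 0 fell, a share of 44.4% higher that is close to the 43.1% over all genes. Their median was 0.08 and turned to -0.07 after quantile normalization, and S100a8 was not called (-0.21). Among interferon-stimulated genes 25 of 43 rose, a share of 58.1%, and 4 fell (median 0.29). Of 41 cytokines and chemokines 25 rose and 9 fell (median 0.68). The growth factors Ptn, pleiotrophin (3.36), and Mdk, midkine (2.27), and the chemokine Cxcl16 (2.02) rose, and Fgf1 (-1.40) and Cxcl9 (-1.02) fell. Cell cycle genes showed no common direction. Their median of -0.12 turned to 0.19 after rescaling to recovered reads. Of 44, 8 rose, 10 fell and 26 were not called. Mki67, a marker of dividing cells, was at 3.47, 5.52, 4.31 and 3.26 RPKM in injured and 1.89, 3.81, 5.14 and 1.59 RPKM in uninjured libraries, with overlap, and was not called (0.39). Without mouse A10, whose uninjured library was its highest remote value, the difference was 0.60 and called (limma adjusted p = 0.00891). It was also called with pseudocounts of 0.1 and 0.5, in the 8 libraries alone, after centring on the library median (limma adjusted p = 0.0375 to 0.0472) and after rescaling to recovered reads (difference 0.73, limma adjusted p = 0.00177).

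Contractile genes of heart muscle were the counterpart of the matrix. Of 51 sarcomere and Z disc genes 0 rose and 48 fell, 44 of them at least 2-fold (median -2.01). The gene with the smallest difference of all was Acta1 (chr8:123891769-123894751, minus strand), the actin of skeletal muscle that the adult heart makes beside cardiac actin. It was at 11.2, 4.49, 12.1 and 22.2 RPKM in injured libraries, against 539, 435, 453 and 1649.8 RPKM in uninjured libraries. Uninjured A11 was far above the other remote samples, and its injured library was the highest of the scars. The difference was -5.76 ± 0.48 (limma adjusted p = 2.94e-09). Cardiac actin, Actc1, was at 1847, 1068, 1436 and 1996 RPKM in injured libraries, against 6643, 5981, 5418 and 5868 RPKM in uninjured libraries. It kept more of its level, with a difference of -1.95 ± 0.21. The muscle actins are near-identical in sequence, so reads could have been split between them by the authors' counting.

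The actin genes are known targets of serum response factor, whose site is called the CArG box. Here a box means the letters CCWWWWWWGG, with W for A or T and no mismatch. For Acta1 and Actc1, which fell, and for Acta2 and the smooth muscle light chain gene Myl9 (1.36), which rose, the 250 bases before the RefSeq start (GRCm38.p6) are printed here from 5′ to 3′ on the strand of the gene, with CArG boxes found on either strand in capitals. They lie at chr8:123894776-123895025 (minus strand) for Acta1, chr2:114052876-114053125 (minus) for Actc1, chr2:156775214-156775463 (plus) for Myl9 and chr19:34255374-34255623 (minus) for Acta2.
Acta1: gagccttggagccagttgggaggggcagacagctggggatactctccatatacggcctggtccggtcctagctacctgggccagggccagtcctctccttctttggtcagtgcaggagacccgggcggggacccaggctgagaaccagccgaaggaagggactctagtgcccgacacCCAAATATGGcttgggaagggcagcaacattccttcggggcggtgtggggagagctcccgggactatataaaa
Actc1: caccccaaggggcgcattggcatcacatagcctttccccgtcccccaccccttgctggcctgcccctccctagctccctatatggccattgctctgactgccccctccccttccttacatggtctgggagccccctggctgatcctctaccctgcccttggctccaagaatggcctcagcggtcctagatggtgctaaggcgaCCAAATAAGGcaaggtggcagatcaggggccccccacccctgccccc
Myl9: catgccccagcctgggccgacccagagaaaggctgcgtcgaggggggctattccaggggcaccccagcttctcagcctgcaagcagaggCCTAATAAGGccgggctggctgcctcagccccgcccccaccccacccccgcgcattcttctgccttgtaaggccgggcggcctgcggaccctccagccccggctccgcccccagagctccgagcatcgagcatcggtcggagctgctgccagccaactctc
Acta2: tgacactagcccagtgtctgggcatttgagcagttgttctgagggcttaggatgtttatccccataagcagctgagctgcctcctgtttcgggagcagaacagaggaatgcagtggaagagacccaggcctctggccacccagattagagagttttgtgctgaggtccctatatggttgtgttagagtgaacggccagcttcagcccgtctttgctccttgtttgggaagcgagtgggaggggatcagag
A box began 73 bases before the start of Acta1, 47 before that of Actc1 and 161 before that of Myl9. The windows of Cnn1, Myl2, Tnni3, Tnnt2 and Nppa, looked up in the same way, held none. Of the 24 genes with the largest and smallest differences 14 had a promoter, and 1 of these held a box, Acta1. Other motifs were searched as well. The window of Acta2 held no exact match, which does not mean that it lacks a site of this kind. Near matches are not in capitals, such as ccctatatgg in the windows of Acta2 and Actc1 and ccttgtttgg in that of Acta2. The window held a CArG box in 1.4% of 27025 RefSeq promoters, in 1.24% of the 8550 tested genes that matched by symbol, in 0.697% of the 1004 that rose at least 2-fold and in 1.84% of the 1359 that fell at least 2-fold. A match is a description of the sequence, not a bound site, and these shares were not tested.

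The defining markers of heart muscle cells were lower but well present in the scar samples. Myh6, the main myosin of the mouse heart, was at 463, 351, 605 and 454 RPKM in injured libraries, against 5296, 4824, 4167 and 4234 RPKM in uninjured libraries. As a mean over the 4 mice the injured level was 10.3% of the uninjured level of the same mouse for Myh6, 10.5% for Tnni3, 13.1% for Myl2, 23.8% for Ryr2, 25.9% for Ttn, 26.5% for Actc1, 26.7% for Actn2 and 35.5% for Tnnt2. The share that was left thus varied widely between genes of the same cell type. These shares are on the authors' scaling and would be higher after rescaling to recovered reads. That rescaling moved the median of the sarcomere list from -2.01 to -1.57. Myh7, the slow myosin that rises in stressed mouse hearts, was at 235, 217, 380.0 and 538 RPKM in injured libraries and 77.2, 180.3, 219.6 and 368 RPKM in uninjured libraries. The groups overlapped and the difference of 0.80 ± 0.38 was not called (limma adjusted p = 0.0561), though it was under 4 alternatives: the 8 libraries fitted alone (limma adjusted p = 0.0105), no robust moderation (limma adjusted p = 0.0422), rescaling to recovered reads (difference 1.25, limma adjusted p = 0.00529) and quantile normalization (1.91, limma adjusted p = 0.000105). Set against Myh6, however, the ratio of Myh7 to Myh6 was 0.509, 0.620, 0.629 and 1.19 in injured libraries, against 0.0146, 0.0374, 0.0527 and 0.0869 in uninjured libraries, with no overlap.

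The natriuretic peptides, hormones released by strained heart muscle, did not move together. In the list of natriuretic peptides and stress genes 5 of 24 rose and 14 fell, and the median of -0.54 turned to 0.13 after quantile normalization. Nppa was at 3951, 3035, 4103 and 4961 RPKM in injured libraries, against 421, 522, 1057 and 1033 RPKM in uninjured libraries. Every scar was above every remote sample (difference 2.50 ± 0.30, limma adjusted p = 9.68e-08). Nppb was at 422, 223, 523 and 757 RPKM in injured libraries and 527, 611, 969 and 928 RPKM in uninjured libraries. It was lower in the scar in each of the 4 mice, with overlap between the groups (difference -0.74 ± 0.24), but stood at 0.51 after quantile normalization and was not called after rescaling to recovered reads (-0.28, limma adjusted p = 0.271) or without mouse A4 (-0.50, limma adjusted p = 0.0826). The ratio of Nppa to Nppb was 9.36, 13.6, 7.84 and 6.56 in injured libraries, against 0.798, 0.853, 1.09 and 1.11 in uninjured ones. Nmrk2, a kinase of nicotinamide riboside induced in stressed muscle, rose by 1.29. Nppa is also a gene of the atria. Of 7 atrial genes tested, 3 rose (Dkk3, Nppa and Nr2f2) and 3 fell, among them Kcnj3, a channel subunit of the atria (-2.91). The atrial markers Myl7 and Sln were not analysed here.

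In calcium handling and ion channels 53 of 57 genes fell (median -1.62). Atp2a2, the calcium pump of the sarcoplasmic reticulum, fell to a difference of -3.25 ± 0.19 and its inhibitor Pln to -3.04 ± 0.20. Kcnip2, a subunit of the fast potassium current, was at 2.09, 1.65, 2.81 and 3.02 RPKM in injured libraries, against 40.6, 39.2, 30.8 and 29.9 RPKM in uninjured ones. Among 33 cardiac transcription factors 21 fell and 7 rose. Hopx, a homeodomain cofactor of heart muscle, fell furthest, to 4.21, 7.999, 11.5 and 10.6 RPKM in injured libraries, against 145, 153, 133 and 118 RPKM in uninjured libraries (difference -3.92 ± 0.18). The metabolic regulators Perm1 (-2.76), Rxrg (-2.63), Ppara (-2.47) and Esrra (-2.02) followed. Gata4 (-0.61), Nkx2-5 (-1.19) and Tbx5 (-0.55), which specify the heart in the embryo, fell less, and Gata4 was not called after rescaling to recovered reads (-0.18, limma adjusted p = 0.098). Tbx20 (1.38), Zfpm2 (1.02) and Thrb (0.996) rose.

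Genes of energy metabolism fell in large numbers. All 79 tested nuclear genes of oxidative phosphorylation fell, though Cox6a1 and Cox8a turned to 0.10 and 0.12 after quantile normalization, and 77 fell at least 2-fold (median -2.72). All 7 tested genes of the mitochondrial genome fell too (median -2.28, or -0.89 after quantile normalization). The exceptions to the 2-fold fall were Cox6a1 (-0.74) and Cox8a (-0.88), the forms of cytochrome oxidase subunits found outside muscle. Cox7a1, the muscle form of another subunit, was at 74.0, 54.1, 77.2 and 86.2 RPKM in injured libraries, against 1536, 1439, 1046 and 1024 RPKM in uninjured libraries. Every scar lay far below every remote sample, and the fall was larger in A3 and A4 than in A10 and A11 (difference -4.09 ± 0.19). In fatty acid oxidation and the TCA cycle 51 of 53 genes fell (median -2.79). Fabp3, the fatty acid binding protein of heart muscle, was at 132, 84.6, 122 and 176 RPKM in injured libraries, against 2048, 1963, 1620.2 and 1554 RPKM in uninjured libraries. Glycolysis was divided. Of 34 genes 25 fell and 7 rose, and those that rose most were Eno2 (1.28), the lactate exporter Slc16a3 (1.22) and the regulators Pfkfb3 (1.14) and Pfkfb4 (0.76). Fbp2, the muscle form of fructose bisphosphatase, fell furthest (-4.16).

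**Figure D4:**
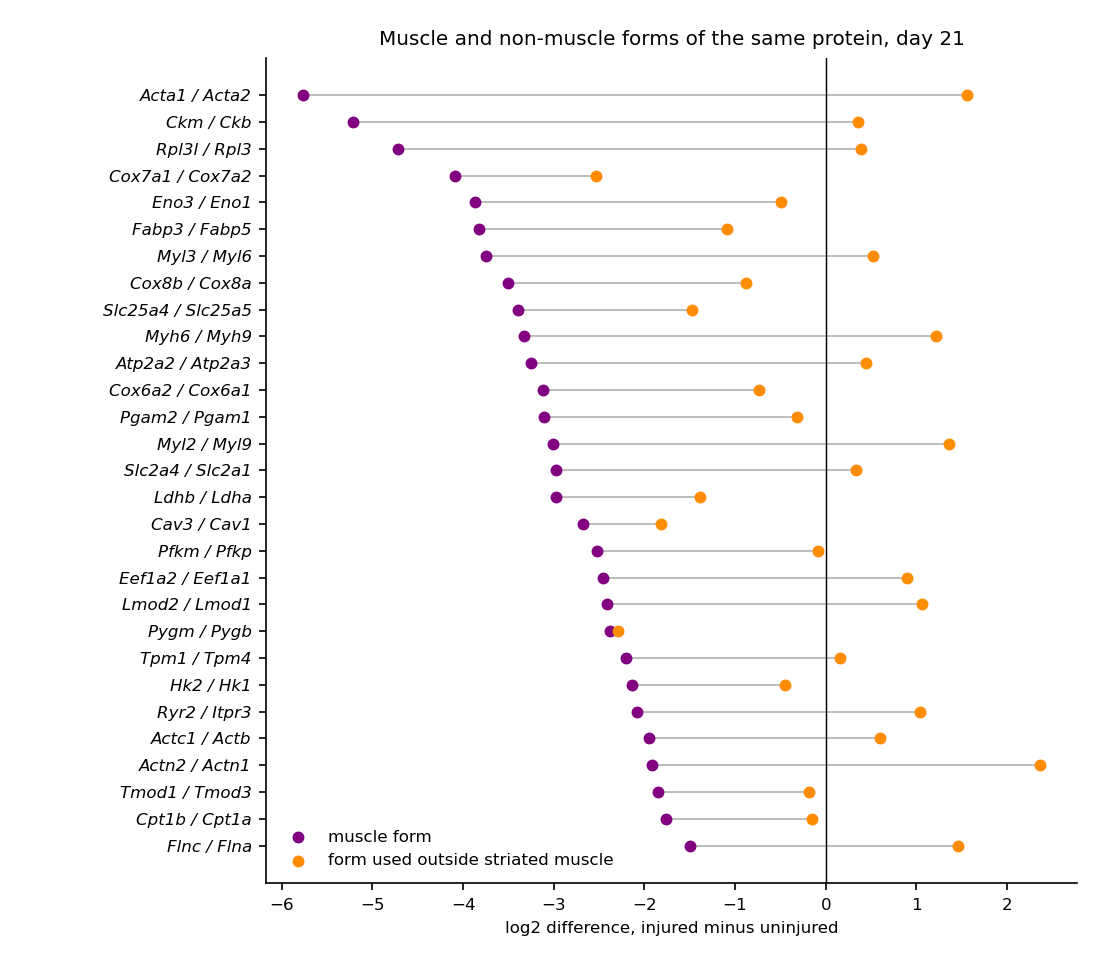
Log2 difference at day 21 of the muscle form (purple) and of its partner (orange) for 29 pairs of genes. Most pairs encode versions of the same protein, while Ryr2 and Itpr3 are related channels. The orange label, form used outside striated muscle, does not hold for Ldha, which is also the form of skeletal muscle. Every muscle form lies left of 0 and left of its partner, while the partners lie on both sides of 0.

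Many of these proteins exist in a muscle version and another version from separate genes, and such pairs were set side by side. In bulk samples a pair cannot show whether cells kept or lost a function. Partners need not be absent from muscle: Ldha is also the form of skeletal muscle. Ryr2 and Itpr3 are related channels rather than versions of the same protein. In 29 pairs with both genes tested, the muscle form fell in 29 (median -2.98). The other form rose in 14, fell in 12 and was not called in 3 (median 0.16). That split moved with scaling: after rescaling to recovered reads the other form rose in 18 and fell in 8 (median 0.61), whereas the muscle form still fell in 29. In 28 pairs the ratio of the other form to the muscle form was higher in all 4 injured libraries than in any uninjured one, and in 1 it overlapped, Pygb to Pygm. With every muscle form lower, this count is not a result about the pairs. The partners' median of 0.16 lay close to the 0.03 over all genes, and ratios with unrelated genes were not computed. The mean log2 ratio change ran from 0.098 to 7.48 with a median of 2.74. Ckm, the creatine kinase of muscle, was at 16.9, 11.3, 33.5 and 27.1 RPKM in injured libraries, against 971, 883, 668 and 695 RPKM in uninjured libraries. Its brain-type partner Ckb was at 34.7, 36.5, 50.2 and 54.3 RPKM in injured and 27.6, 27.9, 41.6 and 38.5 RPKM in uninjured libraries. The muscle form differed by -5.21 ± 0.30 and its partner by 0.36 ± 0.12. The ribosomal protein gene Rpl3l, a striated muscle copy of Rpl3, was at 2.18, 1.17, 1.73 and 1.70 RPKM in injured libraries, against 90.3, 84.6, 50.8 and 58.8 RPKM in uninjured libraries, while Rpl3 rose by 0.39. The non-muscle alpha-actinin Actn1 rose by 2.36 and filamin A (Flna) by 1.46, while their muscle forms Actn2 (-1.92) and Flnc (-1.50) fell. Among metabolic pairs both forms usually fell, with Ldhb at -2.97 and Ldha at -1.39, Eno3 at -3.87 and Eno1 at -0.50, and Cox7a1 far below Cox7a2 (-2.54). The call of Eno1 was lost after rescaling to recovered reads (-0.086, limma adjusted p = 0.454).

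Genes of further tissues that a dissected sample could hold were checked. All 6 tested red blood cell genes fell. Hbb-bs, a haemoglobin beta gene, was at 36.9, 35.8, 8.16 and 9.89 RPKM in injured libraries, against 229.8, 115, 68.0 and 65.8 RPKM in uninjured libraries. Uninjured A3 was the highest, and A3 and A4 were above A10 and A11 in both regions. The 6 red cell genes summed to 66.6, 66.2, 15.9 and 20.7 RPKM in injured libraries, against 373, 187, 115 and 106 RPKM in uninjured ones. Of 14 adipocyte genes listed, 5 were tested and all fell, led by Fabp4, which capillary endothelium also makes. Of 13 skeletal muscle genes 3 were tested: Tnnt3 rose (1.27), and Myl1 (-1.54) and Mybpc2 (-2.13) fell. Of 10 lung genes only Hopx, a heart gene too, was tested. In the Schwann cell and neuron list 8 of 9 rose, with the neuronal tubulin Tubb3 at 1.80, and Mal fell (-1.62), at a median of 0.97. In the lymphatic endothelium list 9 of 11 rose and 2 fell (median 0.63), and of 26 integrins 20 rose and 4 fell (median 0.97). Ribosomal proteins of the cytosol were slightly lower, 64 of 79 with a median of -0.45, but this direction depends on how the libraries are scaled. Their median was 0.29 after quantile normalization and -0.0043 after rescaling to recovered reads.

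The day 21 difference was then set against the difference at day 14, to ask whether the contrast between the regions had gone on changing. No gene was called (0 of 11390, 0%). At an unadjusted p under 0.05 there were 619 genes (5.43%), the smallest adjusted p was 0.491, and the median standard error of the change was 0.119. In 11376 genes the change was under 1 on the log2 scale. Of the 9571 genes called at day 21, 9523 had the same sign at day 14, and 9014 were called in the same direction there. Comp, for example, had a difference of 6.30 at day 14, a change of -0.71 ± 0.52 to day 21 (limma adjusted p = 0.936), Acta1 had -3.80 and Lgals3 3.99. A p that misses the threshold does not show that the days were alike, and 4 mice per day limit what could be seen. The outcome also depended on the mice. With A10 and A11 as the only day 21 mice 2 genes were called higher and 12 lower, the latter including Cthrc1 (-2.21), Lox (-1.71) and Thbs1 (-1.51). With A3 and A4 as the only ones 2 were higher, including Prelp (1.10), and 3 lower. There 14.2% of genes had an unadjusted p under 0.05.

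Against day 42 the signed difference was higher at day 21 in 935 genes (8.21%) and lower in 522 (4.58%). A lower one can be a narrower gap or, for genes that fell, a wider one. These counts rest on single mice: they were 441 and 150 without A3, 495 and 221 without A4, 682 and 294 without A10 and 1304 and 1045 without A11. Day 42 mice carry B labels, and the day and this cohort cannot be told apart. The largest positive changes were in predicted gene models, followed by Neat1, a long RNA that stays in the nucleus. Neat1 was at 51.2, 42.5, 52.9 and 52.3 RPKM in day 21 injured libraries, against 10.1, 9.70, 17.9 and 23.3 RPKM in uninjured libraries, a difference of 1.72 ± 0.17. At day 42 its difference was -0.06, a change of 1.78 ± 0.24 (limma adjusted p = 0.000181). The negative changes included genes of resident macrophages. F13a1 had a difference of -0.92 at day 42, and the change to that of day 21 was -1.19 ± 0.18 (limma adjusted p = 0.000529), and Folr2 and Cbr2 changed by -0.78 ± 0.20 and -0.67 ± 0.20. The other negative changes of large size were Rps16 (-1.64 ± 0.45), Myoc (-1.23 ± 0.28), and the macrophage lectin Mgl2 (-1.17 ± 0.26). Of the gene lists, the cytosolic ribosomal proteins had 35 of 79 members with a lower difference than at day 42, nuclear oxidative phosphorylation 18 of 79 and macrophages 7 of 47, and 0 of either of the first 2 lists a higher one. Of the sarcomere list 1 member had a higher and 0 a lower difference than at day 42, and of the fibrillar collagens 2 and 0. Plvap (2.80 at day 42) and Vcam1 (2.13) had a smaller difference at day 21, with changes of -0.53 ± 0.17 and -0.45 ± 0.12, and Runx2 (1.08) a larger one, with a change of 0.37 ± 0.10.

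**Figure D5:**
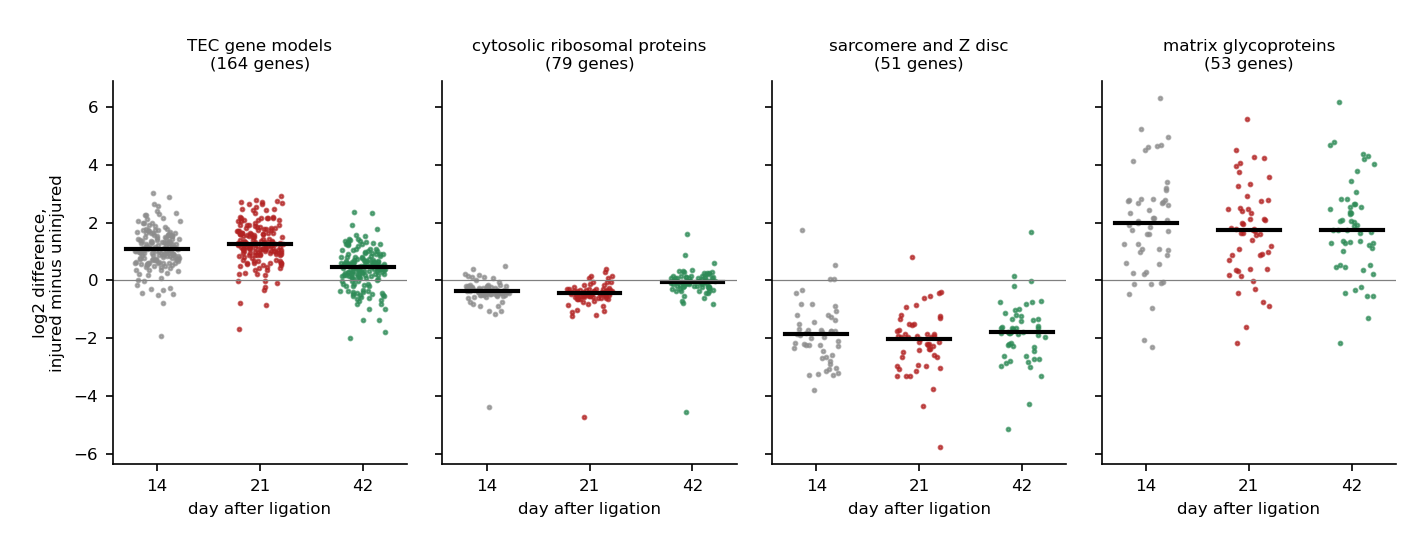
Log2 difference between regions at days 14, 21 and 42 for 164 gene models of the TEC class, which await experimental evidence, 79 cytosolic ribosomal protein genes, 51 sarcomere and Z disc genes and 53 matrix glycoprotein genes (points, genes; bars, medians). Day 14 and 21 medians are close in each group, and the TEC models have a median of 1.27 at day 21 and 0.449 at day 42.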

How the data were processed

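RNA was extracted from heart tissue with RNeasy Mini columns and made into libraries with a TruSeq RNA kit, per the labels' protocols. The authors deposited 1 table of RPKM values for 11450 genes in 40 libraries of 20 mice. Per the submitters' processing notes, STAR and edgeR were used with mm10 as the genome build, and neither their roles nor the annotation, the counting or the choice of genes are stated there. RPKM are not counts, so tests were run on log2(RPKM + 1).

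One limma 3.58.1 model (R 4.3.3, statmod 1.5.0, trend and robust) held all 40 libraries, with 1 difference between regions per day and the mouse as a block, which left 15 residual degrees of freedom. Contrasts were the day 21 difference and its change against day 14 and day 42. P-values were adjusted by Benjamini-Hochberg over 11390 genes, and the procedure was tested on simulated data. The block comes from the series' design text, by which both regions are from the same heart. The deviations from the region means of both libraries of a day 21 mouse correlated at 0.148 to 0.316, and in 4 of 4 mice the best partner of the injured library was the uninjured one of that mouse. P-values measure the spread between the mice of all days in the model, not between the day 21 mice alone.

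To derive read numbers, library factors were taken from the most common ratio of RPKM between pairs of libraries. For each gene, the smallest count was then sought that made its reads whole numbers in every library, within 0.01. Such a count was found for 11437 genes (99.886%), with a median of 576 reads per gene and library. The recovered reads served for depth and for 1 rescaling. Recovered totals divided by the implied library size had a median of 1.02 in injured and 1.353 in uninjured libraries, relative to 1 library.

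The 41 gene lists, the pairs of muscle and other forms and the comparison itself were chosen with earlier results of these data known. Named genes are the 12 with the highest and 12 with the lowest difference, up to 4 leading members of a list and 2 in its minority direction, members of the pairs, the type I, III and V collagens, the 6 most changed against day 42 and the 6 with the most variable difference; further genes named for their role were chosen after their values were seen, and some genes and 1 pair of forms are not reported here. Of the tested symbols 97.4% matched 1 GENCODE M21 gene, and 8 list members were found by an older symbol. Promoters are from RefSeq. Alternatives were other pseudocounts (0.1 and 0.5), filters, blocks and scalings, and leaving out mice.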

Additional observations from a re-analysis of the deposited data

Results flagged for a closer look

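Among the 432 groups of 4 libraries formed by the genes named above and the 2 regions, 13 held 1 library that stood apart from the other 3 by Dixon's criterion, and chance alone marks about 1 group in 20. In the injured region these were high values of Col5a1 (108 RPKM), Loxl1 (128 RPKM) and Fkbp10 (26.1 RPKM) in A10 and of H2-Ab1 (117 RPKM) and Tgfbr2 (54.6 RPKM) in A4. Low injured values were those of Gpc1 (16.1 RPKM) and Neat1 (42.5 RPKM) in A4 and of Srgn (7.27 RPKM) in A3. In the uninjured region Fst (0.417 RPKM) and the mesothelial genes Msln (3.11 RPKM) and Upk1b (1.13 RPKM) were high and Pecam1 (40.8 RPKM) was low in A10. Acta1 was high in uninjured A11, at 1650 RPKM.

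For 26 of the 216 named genes the difference between the regions changed between day 21 and day 42 by limma's test of that change, with day and cohort confounded. Over all genes tested, 8.21% had a higher and 4.58% a lower difference at day 21, so the count is not a result about the named genes. Some of them were named because of this change. The difference was larger at day 21 for Neat1 (1.78), Malat1 (1.04), Egr1 (0.84), P4ha3 (0.60), Heyl (0.56), Notch3 (0.54), Col5a3 (0.52), Zfpm2 (0.45), Tgfb1 (0.42) and Runx2 (0.37). It was lower at day 21 for the ribosomal protein gene Rps16 (-1.64), for Myoc (-1.23) and for the macrophage genes F13a1 (-1.19), Mgl2 (-1.17), Folr2 (-0.78) and Cbr2 (-0.67). It was also lower for the vessel genes Vwf (-0.64), Plvap (-0.53), Vcam1 (-0.45) and Icam1 (-0.40), for the matrix genes Mmp3 (-0.94), Dcn (-0.70) and Timp3 (-0.67), and for Ly6a (-0.87), Cox7a2 (-0.75) and Myl9 (-0.74).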

How the results depend on the processing

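Of 216 genes named, 191 kept their direction and their side of the threshold under all 15 alternatives set at the start. Scaling mattered most. Rescaled to recovered reads, 3008 genes fell, 2548 genes rose at least 2-fold and 1105 genes fell at least 2-fold, P4ha2 stood at 0.0013, Plod1 at 0.084, Rps16 at 0.38 and the cell cycle median at 0.19. After quantile normalization Cox6a1 stood at 0.10, Cox8a at 0.12, Nppb at 0.51, Rps16 at 0.37, Igf2r at 0.067, Plod1 at 0.0022, Mmp8 at -0.071 and Wnt5a at -0.063, and the medians were -0.071 for neutrophils, 0.13 for natriuretic peptides and stress and 0.29 for cytosolic ribosomal proteins. Of 40 list medians, 32 moved by more than the spread between mice and 1 reversed after rescaling, and 19 moved and 3 reversed after quantile normalization. With a pseudocount of 0.1, 2305 genes rose at least 2-fold. Why these values moved was not tested.

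Without the replicate block 4811 genes rose and 4590 fell at day 21, and 330 in place of 522 had a lower difference than at day 42. Leaving out 1 day 21 mouse in turn gave 4671 to 4805 genes that rose and 4452 to 4577 that fell. The counts of changes against day 14 ran from 0 to 1 higher and 0 to 3 lower, and those against day 42 from 441 to 1304 higher and from 150 to 1045 lower. Rps16 ranged from -0.17 to 0.078 and the cell cycle median from -0.22 to 0.055. With mice A3 and A4 as the only day 21 mice, an alternative chosen after seeing the data, 2 and 3 genes had a higher and lower difference than at day 14, and 1165 a lower one than at day 42. With A10 and A11 alone these were 2 and 12 against day 14 and 116 and 93 against day 42, and the atrial median was -0.049. A count test on recovered reads was not run, because the deposited RPKM are not counts.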

Other observations

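The gene models that the GENCODE annotation puts in the class TEC await experimental evidence. Of 164 tested (1.44% of genes), 153 rose and 4 fell in the injured region at day 21, and they made up 7.52% of the genes that rose at least 2-fold. Their median difference was 1.27 at day 21 and 1.09 at day 14, against 0.449 at day 42, and 138 of them were among the 935 genes with a higher difference at day 21 than at day 42 and 0 among the 522 with a lower one. The nuclear RNA Malat1 was at 2309.8, 2213, 2149 and 1624 RPKM in injured libraries, against 632, 583, 941 and 1041 RPKM in uninjured libraries, and its difference was 1.41 ± 0.19 at day 21 and 0.36 at day 42. Of 61 long intergenic RNAs 42 rose and 16 fell at day 21, with a median of 0.683. TEC models often lie within other genes, and the strand setting of the authors' counting is not known, so their reads and those of a host gene cannot be told apart. Day and cohort cannot be told apart in these values.

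Among genes of at least 10 RPKM, the 6 whose difference varied most between the 4 mice were Gm10800, Gm23935, Gm10801, n-R5-8s1, Mir6236 and Gm24601, which are predicted, ribosomal RNA or small RNA models.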
